A study of Mus musculus with 4 samples.

Results

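Interferon-induced genes were examined in 4 samples of normal skeletal muscle from mice. The set held 9 genes, Isg15, Ifit1, Ifit2, Ifit3, Irf7, Usp18, Ifi44, Oasl2 and Gbp2, listed by name. A gene counted as measured where the platform annotation gave at least 1 probe set (a group of short probes for 1 transcript) to that gene alone, which held for 7 of the 9 genes through 8 probe sets, out of 12393 genes measured in this way. Isg15, whose probe set is also given to the pseudogene Gm9706, and Ifi44 were not analysed here. Where a gene had more than 1 probe set, the one with the highest mean stood for it.

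All 4 samples came from wild type mice of a mixed 129S4/SvJae and C57BL/6 strain background, with no treatment, age or muscle named, and were read on 1 array each. In the series this muscle stands beside sarcomas, not analysed here, that arose from muscle progenitor cells or after Cre virus was injected into muscle. The labels form a single group. The sample titles carry 2 prefixes of unstated meaning, nm (nm7 and nm8) and skm (skm4 and skm5), and the skm minus nm difference is given below as a split by title, which may be a batch, and not as a study group. Whether each sample is its own animal is not stated, so part of the spread among the 4 arrays may be technical. A p-value here sets the difference between prefixes against the spread within them, which is drawn towards the spread typical of all genes.

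Interferons are cytokines released on infection or tissue damage. Type I interferons bind a receptor of Ifnar1 and Ifnar2, whose kinases Jak1 and Tyk2 activate a complex of STAT proteins with Irf9. That complex binds the interferon-stimulated response element (ISRE) in front of target genes, while interferon gamma acts mainly through a STAT dimer on the gamma-activated sequence (GAS). Among the targets, Irf7 is a transcription factor that amplifies type I interferon production, Isg15 is a ubiquitin-like protein that is attached to other proteins, Usp18 removes it again and dampens the receptor, the Ifit proteins bind foreign RNA, Oasl2 is an antiviral protein related to the oligoadenylate synthetases, and Gbp2 is a guanylate-binding GTPase that acts against intracellular pathogens. Resting muscle fibres, blood vessels and resident immune cells can all carry a basal level of these transcripts.

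The promoters of the 3 members with the largest differences between title prefixes, Ifit1, Gbp2 and Irf7, are shown because the windows around their starts, described next, differ in the ISRE. They are the bases of those windows before the gene model as RefSeq gives it on GRCm38.p6, so the stretch of Irf7 lacks the bases nearest to the start used for its window, which were searched but are not printed. They are written 5′ to 3′ on the gene's strand, with capitals for each match to the ISRE core, GAAANNGAAA on either strand.
Ifit1, chr19:34640639-34640888, plus strand, 250 bases: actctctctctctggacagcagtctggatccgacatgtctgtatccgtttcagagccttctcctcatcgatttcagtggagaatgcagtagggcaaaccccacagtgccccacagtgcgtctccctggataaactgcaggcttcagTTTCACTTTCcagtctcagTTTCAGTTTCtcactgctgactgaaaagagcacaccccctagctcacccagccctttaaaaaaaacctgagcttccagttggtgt
Gbp2, chr3:142620413-142620662, plus strand, 250 bases: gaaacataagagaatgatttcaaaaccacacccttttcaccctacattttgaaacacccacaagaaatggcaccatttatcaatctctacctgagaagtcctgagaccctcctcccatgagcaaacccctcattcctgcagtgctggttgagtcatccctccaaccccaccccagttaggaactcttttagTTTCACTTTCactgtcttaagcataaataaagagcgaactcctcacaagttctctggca
Irf7, chr7:141266500-141266674, minus strand, 175 bases: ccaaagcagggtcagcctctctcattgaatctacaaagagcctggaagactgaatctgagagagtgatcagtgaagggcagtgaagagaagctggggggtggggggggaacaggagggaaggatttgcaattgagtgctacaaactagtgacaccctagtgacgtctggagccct

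Promoter windows of 300 bases, 250 before and 50 after a start given for the gene, were found for 8 of the 9 members. The ISRE core was present in 4 of them, Isg15, Ifit1, Ifit3 and Gbp2, against 3.44% of all 32851 windows. Ifit1 held it at -104 (TTTCACTTTC) and at -85 (TTTCAGTTTC), counted as the first base of the match from the start used for the window. Ifit3 held the same pair of 10-base strings, at -156 and -122, and Gbp2 held the first of them at -59. The Ifit3 matches lie inside its gene model, which begins at or before the first base of its window. The 3 matches of Isg15 overlapped each other, from -78, -72 and -66. No ISRE core lay in these windows of Ifit2, Irf7, Ifi44 and Oasl2. The GAS letters, TTCNNNGAA, which read alike on both strands, were in 8.30% of all windows and, among the members, in 1 window of Ifit2 alone (TTCCTGGAA at -241), which held no ISRE core. A match is a description of the letters, and no match says only that they are not in this window. How the matches relate to the differences between prefixes given below was not tested. Of the measured members with the ISRE core, Ifit1 and Gbp2 were lower in both skm samples and Ifit3 overlapped. Of those with a window but no core, Ifit2 was lower in both, Irf7 was higher in both and Oasl2 overlapped.

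Values are log2 RMA expression values, on which a step of 1 is 2-fold, and levels are compared between samples and never between probe sets. Bacterial control probe sets of the TrpnX transcript, which muscle lacks, read 3.40 to 4.05 on these arrays. RMA compresses differences near the background, so differences of dim genes are understated. The tissue label was borne out by its markers: the 8 skeletal muscle markers averaged 14.43 to 14.55 in the 4 samples. Of the markers of other cells 0 passed limma's test adjusted over all genes, and markers without overlap between prefixes stand against 54.4% of all genes (25.8% higher and 28.6% lower in skm). All 8 measured T cell markers were lower in both skm samples than in both nm samples, and the mean log2 value over that list was 7.44 to 7.65 in nm and 6.46 to 6.75 in skm. For B cell markers this held for 4 of 6 (7.67 to 7.70 against 6.24 to 6.99), for plasmacytoid dendritic cell markers for 2 of 4 (6.98 to 7.14 against 6.32 to 6.65), for adipocyte markers for 3 of 6 (10.80 to 10.92 against 9.90 to 10.43) and for macrophage markers for 4 of 11, with 1 going the other way (8.07 to 8.13 against 7.88 to 8.08). Of 7 natural killer cell markers 3 were lower and 1 higher without overlap (5.54 to 5.79 against 5.37 to 5.51), of 5 neutrophil markers 1 and 2 (5.95 to 6.07 against 6.00 to 6.08), and of 10 endothelial markers 3 and 4 (8.93 to 8.95 against 9.10 to 9.20). Keratinocyte markers averaged 6.13 in nm7 and 6.26 in nm8, and 6.17 in skm4 and 7.68 in skm5. The share without overlap in either direction was 45.5% for the macrophage list and 57.1% for the natural killer cell list, close to that over all genes. For the plasmacytoid dendritic cell list (2 of 4) and the adipocyte list (3 of 6) that share was below the 54.4% of all genes. Counting lower markers alone, all 4 of these lists were above the 28.6% of all genes. The 2 plasmacytoid dendritic cell and 3 adipocyte markers also had an unadjusted p under 0.05 (limma). So did 2 of 11 macrophage and 2 of 7 natural killer cell markers, all lower, where 13.0% of all genes were lower at that level. With so few markers per list, these shares are a description only. The part of these cells in the results below was not tested, and in whole tissue fewer cells of a type and less RNA per cell cannot be told apart.

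Interferon-induced genes did not share one direction between these muscle samples. Ifit1, Ifit2, Usp18 and Gbp2 read lower in both skm samples than in both nm samples, Irf7 read higher in both, and Ifit3 and Oasl2 overlapped. The largest differences were 1.96-fold in Ifit1 and 1.82-fold in Gbp2, both lower in skm, and 1.74-fold in Irf7, higher in skm. Of the 7 members, 0 passed limma's test with Benjamini-Hochberg adjustment over all genes at 0.05, where 4 of 12393 genes (0.0323%) did. At an unadjusted p under 0.05 there were 5 members, 1 higher and 4 lower, against 23.5% of all genes (10.6% higher and 13.0% lower). The same 5 had no overlap between prefixes, against 54.4% of all genes (25.8% higher and 28.6% lower).

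**Figure D1:**
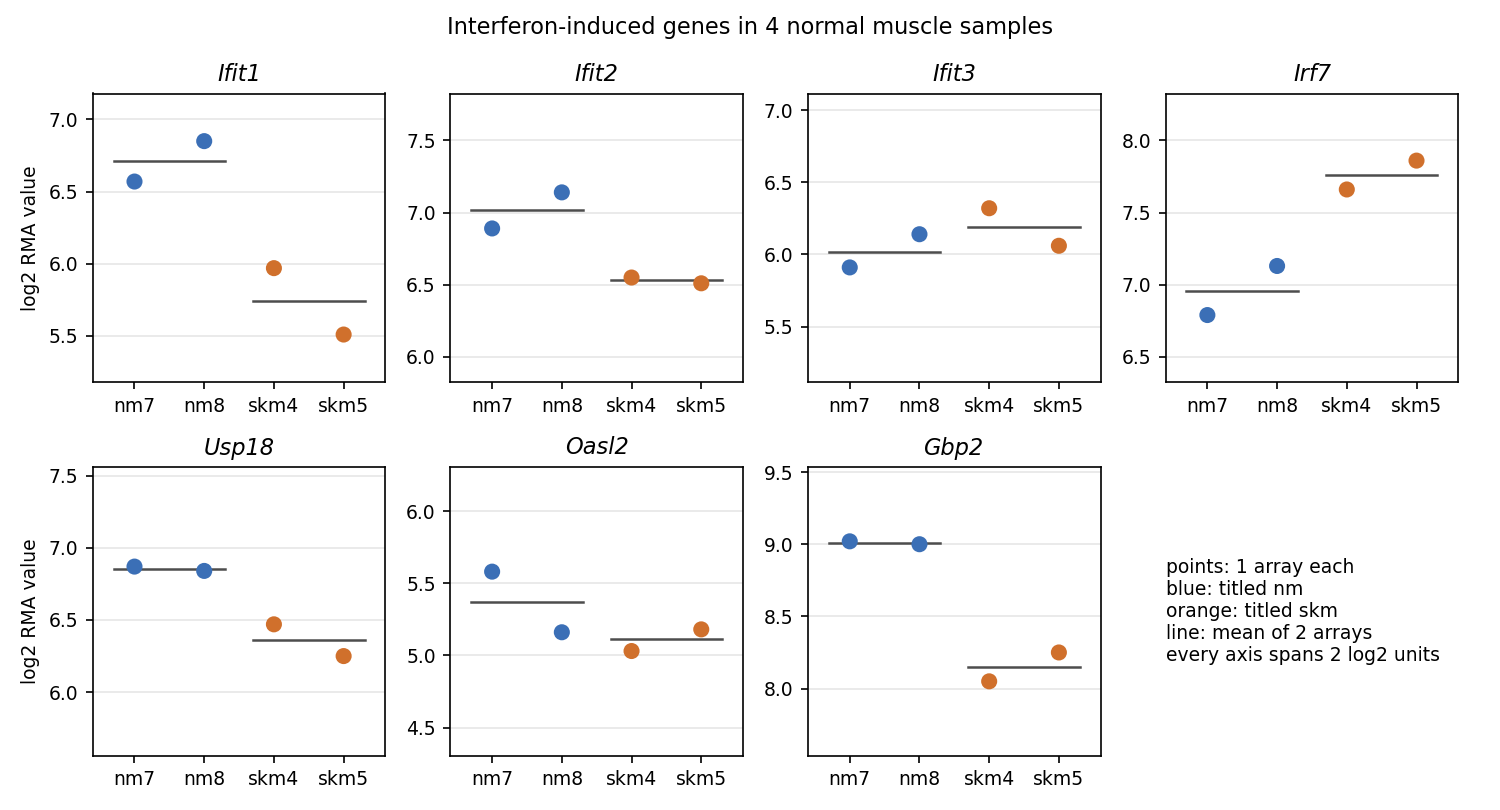
Log2 RMA value of each measured interferon-induced gene in the 4 samples, with 1 point per array, blue for the samples titled nm and orange for those titled skm, and a line at the mean of each pair. Irf7 is the member that sits higher in both skm samples, Ifit1, Ifit2, Usp18 and Gbp2 sit lower, and Ifit3 and Oasl2 overlap.

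Irf7, the transcription factor of the set, read 6.79 in nm7 and 7.13 in nm8, and 7.66 in skm4 and 7.86 in skm5. Both skm samples were above both nm samples, and the gap of 0.53 between the nearest samples of the prefixes was larger than the gap within nm (0.35) or within skm (0.21). The difference was 0.80 ± 0.17 (SE, n = 2 per prefix), or 1.74-fold, and missed the threshold (limma, adjusted p = 0.077). Its SD over the 4 samples was 0.49, at or above that of 95.2% of genes. The endothelial and keratinocyte lists had their highest centred median in skm5 too, at 0.10 and 0.92. Their lowest was in skm4, at -0.04 and -0.42, where Irf7 was above its mean by 0.30. The part of these cells in Irf7 was not tested.

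Usp18, which removes Isg15 from proteins and holds back the type I receptor, read 6.87 in nm7 and 6.84 in nm8, and 6.47 in skm4 and 6.25 in skm5. The nm samples lay within 0.03 of each other and above both skm samples. It differed by -0.49 ± 0.13, or 1.41-fold (limma, adjusted p = 0.11). Among the enzymes that attach Isg15, Trim25, a ligase, read 9.45, 9.46, 8.61 and 8.55 in the order nm7, nm8, skm4, skm5, a difference of -0.88 ± 0.12 (limma, adjusted p = 0.0506). Uba7, the activating enzyme, differed by 0.14 ± 0.14, with nm7 apart from the others at 7.05, and Ube2l6, the conjugating enzyme, by 0.26 ± 0.23.

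Of the Ifit genes, neighbours on chromosome 19, Ifit1 and Ifit2 were lower in both skm samples and Ifit3 overlapped. Ifit1, which binds RNA that lacks the host's cap methylation, had the largest spread of the members, with 6.57 in nm7 and 6.85 in nm8, and 5.97 in skm4 and 5.51 in skm5. All values of the skm samples were below those of nm, with 0.60 between the nearest samples against 0.28 within nm and 0.46 within skm. The difference was -0.97 ± 0.20, or 1.96-fold (limma, adjusted p = 0.075), and the SD of 0.60 was at or above that of 97.6% of genes.

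Ifit2 read 6.89 in nm7 and 7.14 in nm8, and 6.55 in skm4 and 6.51 in skm5. It kept the sample order of Ifit1, from nm8 down to skm5, over a range of 0.63 against 1.34. The difference was -0.49 ± 0.14, or 1.40-fold (limma, adjusted p = 0.12). Ifit3, another RNA-binding member of the family, read 5.91 in nm7 and 6.14 in nm8, and 6.32 in skm4 and 6.06 in skm5. Its highest value was in skm4 and its lowest in nm7, the prefixes overlapped, and the difference was 0.17 ± 0.16 (limma, adjusted p = 0.57). The gene Ifit3b, a close copy beside it, has no probe set of its own in these results, and the binding of its transcript to the Ifit3 probes was not tested.

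Oasl2 read 5.58 in nm7 and 5.16 in nm8, and 5.03 in skm4 and 5.18 in skm5. The nm7 sample was the highest, skm5 lay between nm7 and nm8, and the prefixes overlapped. The difference was -0.27 ± 0.18 (limma, adjusted p = 0.42).

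Gbp2, a GTPase strongly induced by interferon gamma, read 9.02 in nm7 and 9.0 in nm8, and 8.05 in skm4 and 8.25 in skm5. The nm samples differed by 0.02 and the skm samples by 0.20, with 0.76 between the nearest samples of the prefixes, the widest such gap of the members. The difference was -0.87 ± 0.13, or 1.82-fold, the smallest adjusted p of the set (limma, adjusted p = 0.056). Gbp2 was the single member with a second probe set, which read 8.23 in nm7 and 8.30 in nm8, and 7.70 in skm4 and 7.71 in skm5. That probe set had no overlap between prefixes either and differed by -0.56 ± 0.13. The first one carries the suffix for probes that may bind other transcripts, and without such probe sets the second stood for the gene at a mean of 7.98 in place of 8.58 (limma, adjusted p = 0.076). Gbp2 and Oasl2 were lowest in skm4, as were the centred medians of all marker lists except those of natural killer cells (lowest in skm5), neutrophils (nm7) and skeletal muscle (nm8). Ifit1, Ifit2 and Usp18 were lowest in skm5.

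**Figure D2:**
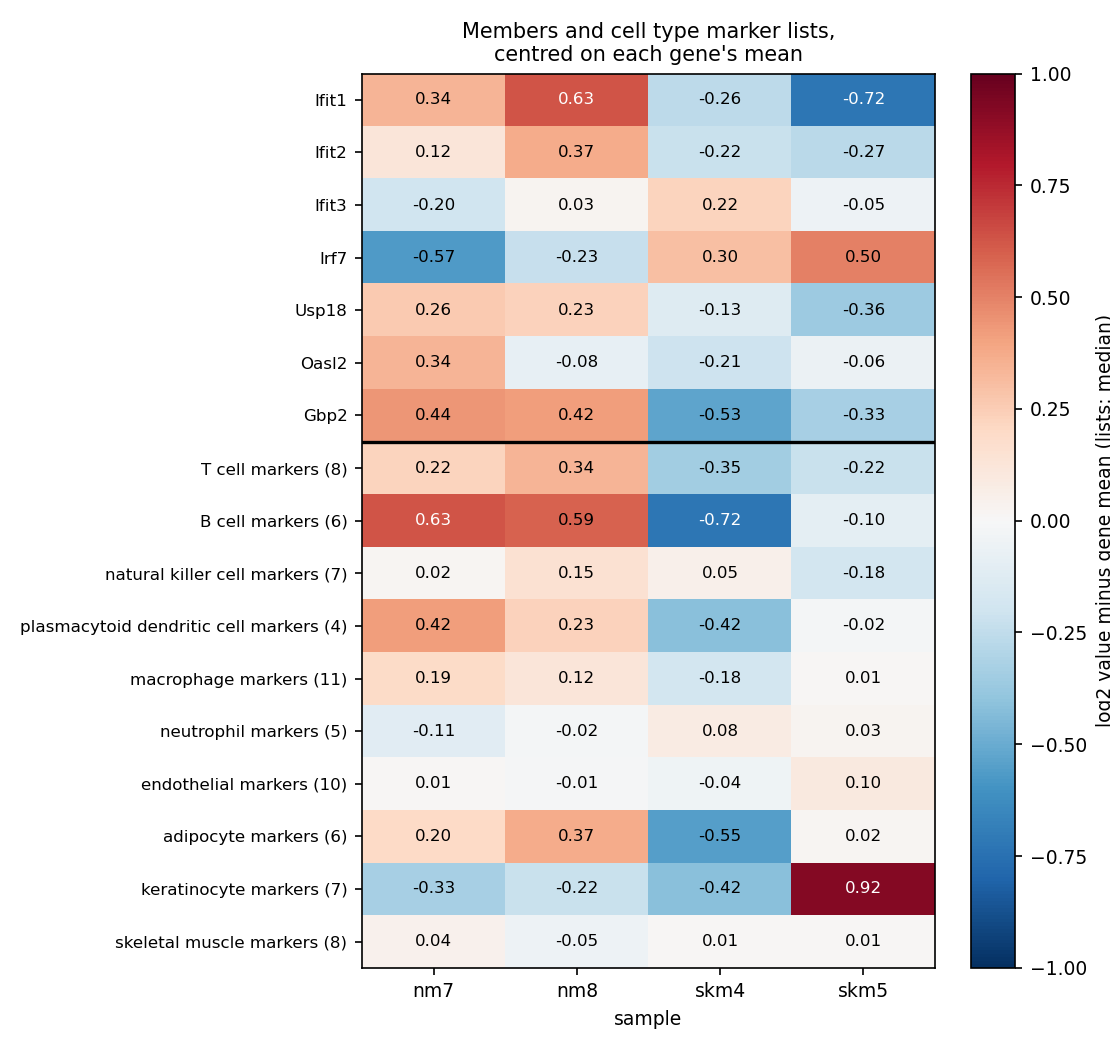
Log2 values minus each gene's mean over the 4 samples (columns) for the 7 measured members (rows above the line) and, below it, the median of the same quantity over each cell type marker list, with the number of genes in parentheses and red for above and blue for below the mean. Gbp2 and the T cell and B cell lists have their lowest value in skm4 (-0.53, -0.35 and -0.72), Ifit1 has its lowest in skm5 (-0.72), and Irf7 its highest there (0.50).

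The median SD of the 7 members was 0.30 against 0.19 over all genes, and their median skm minus nm difference was -0.49 against 0.00. Only Ifit1 and Irf7 of the 7 ranged over more than 1 on the log2 scale, as did 5.98% of all genes. Sample nm7 held the highest value for 3 members, nm8 for 2, and skm4 and skm5 for 1 each, while the lowest value lay in skm5 for 3 members, in nm7 and skm4 for 2 each, and in nm8 for 0. On centred profiles over the 4 samples, the closest pair of members was Ifit2 and Usp18, with a root mean square difference of 0.118 on the log2 scale, and the farthest was Ifit1 and Irf7 with 0.917.

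With the same measure over all 12393 genes, the 3 genes closest to Ifit1 were Tenm4, a teneurin (0.030), Slc30a7, a zinc transporter (0.047), and Alg9, a mannosyltransferase (0.076), all nearer than the closest member, Gbp2, at 0.262. Closest to Irf7 were Ifna2, which encodes a type I interferon (0.034), Slc29a1, a nucleoside transporter (0.039), and Otof, which encodes otoferlin (0.059), against 0.360 for the closest member, Ifit3. Ifna2 read 5.30 in nm7 and 5.57 in nm8, and 6.14 in skm4 and 6.29 in skm5, the same sample order as Irf7, and differed by 0.78 ± 0.15 (limma, adjusted p = 0.069). Over 4 samples and this many genes, the likeness is a description of the values and no more.

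The rest of the interferon pathway was taken from 9 lists that, the members aside, held 103 measured genes. Of these 0 passed the test over all genes, and at an unadjusted p under 0.05 there were 9 higher and 27 lower in skm, together 35.0% against 23.5% of all genes. Without overlap between the prefixes were 15 higher and 47 lower, together 60.2% against 54.4% of all genes, and the median difference was -0.14. The shares without overlap over all genes, 25.8% higher and 28.6% lower, apply to each list below.

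Among the ligands, 9 were measured and 0 passed the test, with a median difference of 0.20. Without overlap between prefixes were 3 higher and 2 lower, together 55.6% against 54.4% of all genes. At an unadjusted p under 0.05 were 33.3%, against 23.5% of all genes. The ligands were dim, with a mean over the list of 4.92 to 5.18 in these samples, where the bacterial controls read 3.40 to 4.05. Ifnb1, which encodes interferon beta, read 5.24 in nm7 and 5.26 in nm8, and 4.94 in skm4 and 4.45 in skm5. That order ran against Ifna2 and Ifna1, which were higher in both skm samples (0.78 ± 0.15 and 0.51 ± 0.15). Ifna4 overlapped, at 0.26 ± 0.38. Ifna genes are close copies of one another, so a probe set of one may bind others.

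Receptors and their signalling chain had median differences of -0.14 and 0.06. Of 5 receptor chains 0 passed the test, and Ifnar2 showed the largest difference among them, -0.49 ± 0.13, with Ifngr1, a chain of the interferon gamma receptor, at -0.05 ± 0.19. Of 5 genes of the signalling chain 0 passed, with Irf9 at -0.42 ± 0.13, Jak1 at -0.34 ± 0.14 and Stat2 at 0.24 ± 0.19. Of 7 genes that restrain the pathway 0 passed, 5 were lower in both skm samples (71.4% against 28.6% of all genes), and 28.6% had an unadjusted p under 0.05 against 23.5% of all genes. Socs3, an inhibitor of cytokine receptors, read 8.71, 8.93, 7.73 and 8.04 in the order nm7, nm8, skm4, skm5 (-0.94 ± 0.16), and Ptpn2, a phosphatase of JAK and STAT proteins, differed by -0.60 ± 0.13. Socs1 overlapped, at -0.13 ± 0.28.

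The other interferon regulatory factors did not follow Irf7 as a family. Of 7 measured, 0 passed the test, Irf3 and Irf4 were higher in both skm samples, and Irf1, Irf2 and Irf9 were lower in both. Those 5 are 71.4% of the list, against 54.4% of all genes without overlap. At an unadjusted p under 0.05 were 42.9% of the list, against 23.5% of all genes. Irf4, a factor of lymphocytes, read 5.58 in nm7 and 5.48 in nm8, and 5.82 in skm4 and 6.63 in skm5 (0.69 ± 0.27). Irf2, a repressor of interferon targets, differed by -0.42 ± 0.14, and Irf8, a factor of myeloid cells, overlapped (-0.23 ± 0.20), with skm4 apart from the others at 6.87.

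Of 12 measured sensors of foreign nucleic acid and their adaptors 0 passed the test, 9 had the lower mean in skm, and the median difference was -0.29. In both skm samples 8 were lower and 1 higher, together 75.0% against 54.4% of all genes, while 3 of the 12 had an unadjusted p under 0.05, near the 23.5% of all genes. Tlr3, the endosomal sensor of double-stranded RNA, read 7.04 in nm7 and 7.01 in nm8, and 6.06 in skm4 and 6.01 in skm5, which is -0.99 ± 0.12 (limma, adjusted p = 0.0506). Ikbke, a kinase that activates IRF factors, differed by -0.92 ± 0.31, Tlr7, the sensor of single-stranded RNA, by -0.51 ± 0.14 and Ifih1, the cytosolic sensor MDA5, by -0.44 ± 0.19.

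Further genes induced by type I interferon had differences of both signs, 15 above and 24 below 0. Of these 39, 0 passed the test, and the median difference was -0.06. In both skm samples 9 were higher and 15 lower, together 61.5% against 54.4% of all genes. At an unadjusted p under 0.05 were 43.6% of the list, 6 higher and 11 lower, against 23.5% of all genes. Ifi27l2a, an interferon-induced membrane protein gene, read 10.39 in nm7 and 10.71 in nm8, and 8.99 in skm4 and 9.35 in skm5 (-1.38 ± 0.18, limma, adjusted p = 0.0506). Ifitm1, which blocks virus entry, differed by -1.12 ± 0.30, Trim21, a cytosolic antibody receptor, by -0.86 ± 0.12 and Ifi204, a DNA sensor, by 0.57 ± 0.35.

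Genes typical of interferon gamma had 0 of 17 past the test and a median difference of -0.27. In both skm samples 10 were lower and 0 higher, together 58.8% against 54.4% of all genes (28.6% lower and 25.8% higher). At an unadjusted p under 0.05 were 35.3% of the list, 6 lower and 0 higher, against 23.5% of all genes. Ifi47, an immunity-related GTPase, read 8.22 in nm7 and 8.59 in nm8, and 6.48 in skm4 and 7.01 in skm5, a difference of -1.66 ± 0.23 or 3.16-fold (limma, adjusted p = 0.0506). Cd274, the checkpoint ligand PD-L1, differed by -1.07 ± 0.13 and Ciita, the master regulator of MHC class II genes, by -0.81 ± 0.21. Iigp1, another GTPase of this family, overlapped between prefixes (-0.21 ± 0.64). It read 9.72 in nm7 and 10.85 in nm8, and 10.95 in skm4 and 9.21 in skm5. As given above, mean levels of the T cell, B cell, natural killer cell, plasmacytoid dendritic cell and adipocyte marker lists were lower in both skm samples as well. That of the endothelial list was higher in both, and the other marker lists overlapped. The part of these cells in these differences was not tested.

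**Figure D3:**
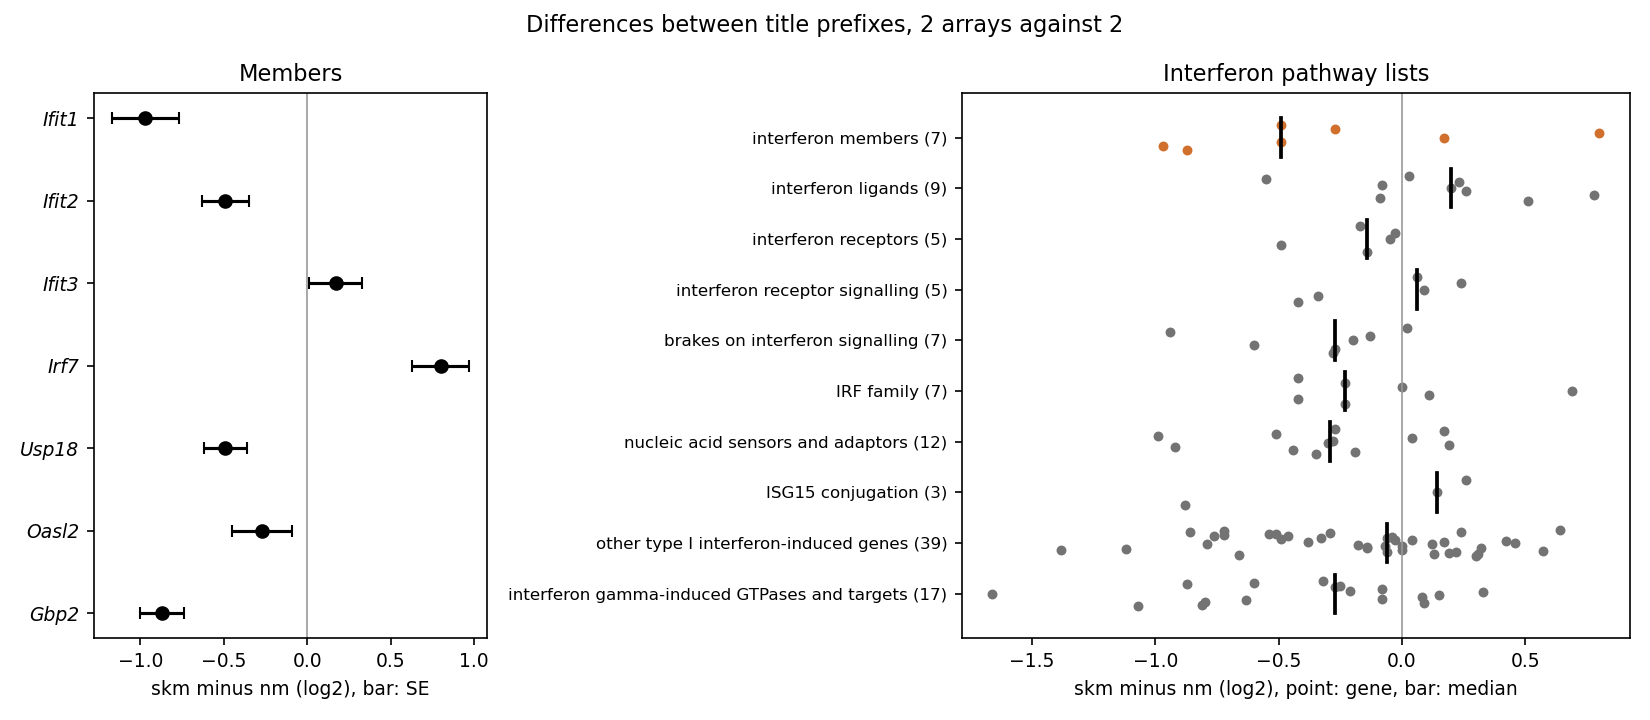
Skm minus nm differences on the log2 scale, on the left for the 7 measured members with the standard error of the limma fit as bars, and on the right for each gene (points) of the members and of 9 interferon pathway lists, with the list's median as a black bar and the number of genes in parentheses. Irf7 at 0.80 stands opposite Ifit1 at -0.97 and Gbp2 at -0.87, and the list medians lie between -0.49 for the members and 0.20 for the ligands.

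Each member kept its direction under every alternative that tested it, and the number past the threshold changed. Many of these alternatives could not have reversed a direction. An intensity trend and the test of all probe sets leave each difference as it is. Leaving out 1 sample cannot reverse a member without overlap between prefixes. Leaving out genes under the median level left Gbp2 alone. With an intensity trend in eBayes 3 members passed, Ifit1 (adjusted p = 0.041), Irf7 (0.043) and Gbp2 (0.014), where 8.96% of all genes were called. Gbp2 passed also after a further quantile normalization (0.0498, with 1.50% of all genes called) and when genes under the median level were left out (0.016, with 16.6% called). An exact permutation of 2 samples against 2 cannot give a 2-sided p below 0.333, so that test cannot call a single gene.

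**Figure D4:**
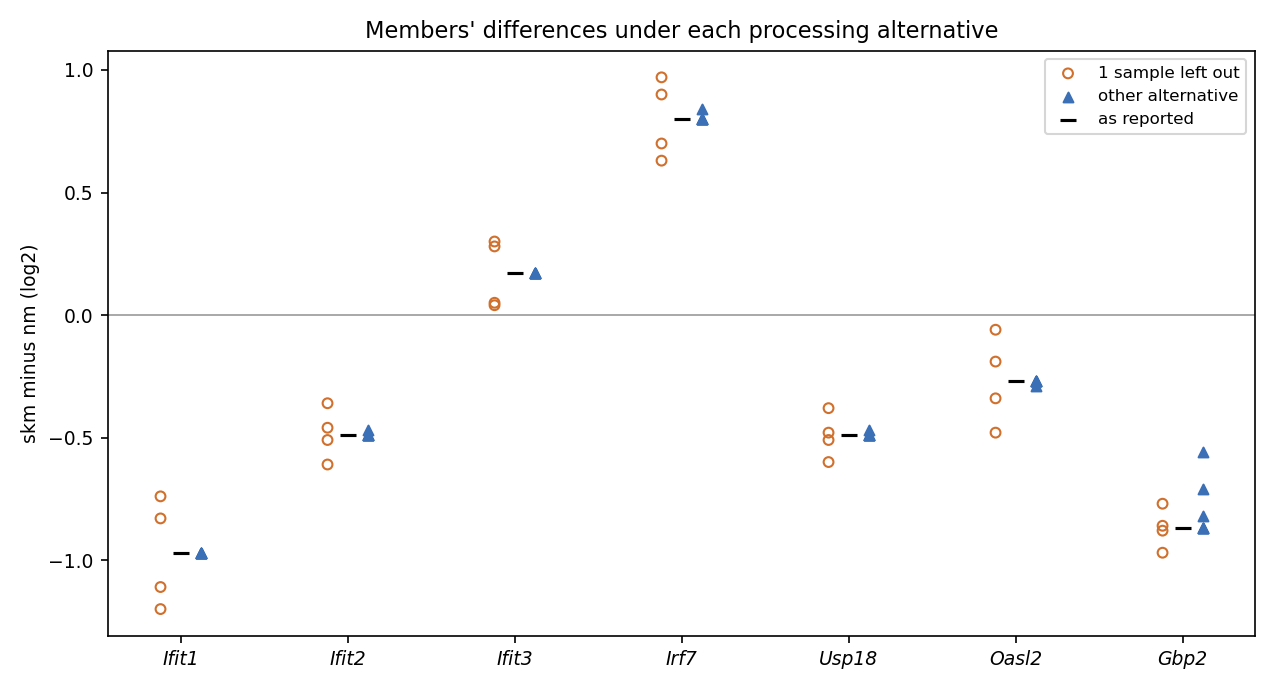
Skm minus nm difference on the log2 scale (vertical axis) of each measured member as reported (dash), with 1 of the 4 samples left out (open circles) and under the other processing alternatives (triangles). No point crosses 0. Ifit3 lies between 0.04 and 0.30, Oasl2 between -0.48 and -0.06, and Gbp2 is nearest to 0, at -0.56, where its second probe set stands for it.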

How the data were processed

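Total RNA of 4 normal muscle samples was read on 1-colour Affymetrix arrays. Per the submitters' processing notes, the authors ran RMA in Affymetrix Expression Console 1.1, which gives the deposited log2 values of each probe set. The arrays normalized together with these are not given in the sources used here. The range of the values bears out a log2 scale (2.80 to 14.76, array medians 7.26 to 7.30). Per the labels' protocols, RNA came from a fibrous tissue kit or a phenol reagent with columns, with no route given for a sample. Of 22690 probe sets, 20380 had 1 gene, 691 several, 1555 none and 64 were controls. Symbols were updated through GRCm38.p6 identifiers, and 29 probe sets kept older ones.

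The test was limma 3.58.1 under R 4.3.3 (linear fits with eBayes, 2-sided, Benjamini-Hochberg over 12393 genes, threshold 0.05, 2 residual and 3.51 prior degrees of freedom). It was checked on simulated data whose shifts were larger than the difference of any member, so the check does not cover differences of their size. No filter was applied. Errors are standard errors of the fit, and 4 arrays limit the precision. The members, lists and tests were chosen with earlier results of these data known. Named were all measured members, genes of the largest SD in each interferon list, and the 3 genes nearest to each member with a range over 1. Some genes that this rule names are left out. Alternatives were other probe sets, quantile normalization, a level filter, an eBayes trend, all probe sets and each sample left out.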

Additional observations from a re-analysis of the deposited data

Results flagged for a closer look

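In 82 genes and probe sets, 3 had 1 sample far from the other three by Dixon's ratio, none of them a member. About 5% would pass by chance. Irf8 read 6.87 in skm4, below the other samples. Uba7 read 7.05 in nm7, below the other samples. Dsp, a keratinocyte marker, read 8.33 in skm5, above the other samples.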

How the results depend on the processing

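No paired analysis was possible because the title prefixes share no replicate numbers. The 7 measured members kept their direction under each of the alternatives that tested them, though many of these could not have reversed it. Their lowest and highest differences were -1.20 and -0.74 for Ifit1, -0.61 and -0.36 for Ifit2, 0.04 and 0.30 for Ifit3, 0.63 and 0.97 for Irf7, -0.60 and -0.38 for Usp18, -0.48 and -0.06 for Oasl2, and -0.97 and -0.56 for Gbp2. Members past the threshold numbered 0 as reported, 1 with quantile normalization, 1 with the dimmer genes left out and 3 with an intensity trend. The level filter left 1 member, Gbp2, so the median difference there was -0.87 and the number without overlap 1. Without probe sets ending in _x_at or _s_at the mean of Gbp2 was 7.98. The range in place of the SD gave a median spread of 0.63. Of the other interferon genes, 0 passed as reported, 4 with the mean of all probe sets, 4 without cross-hybridizing probe sets, 7 with quantile normalization, 9 of 42 above the median level, 13 with the trend and 7 with all probe sets tested. Over all genes the number called was 4 as reported and, in the same order, 92, 142, 186, 1026, 1110 and 326. It was 0 without nm7, without nm8 or without skm4 and 15 without skm5, and 0 members passed in any of these. Leaving out a sample leaves 1 array in a prefix, which is assumed to vary like the other pair. As reported, the smallest adjusted p among the other interferon genes was 0.0506 (limma), just over the threshold. It was shared by Tlr3, Trim25, Ifi27l2a, Ifi47, Cd274 and Psmb8. The cause of these changes in number was not tested. With 4 arrays, and with RMA compressing differences near the background, differences may have been missed. The smallest size that could be detected was not tested.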

Other observations

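Among genes of interferon gamma, several GTPases differed more within each prefix than their prefix means did, as was seen after their values were known. Igtp read 8.64 in nm7 and 9.11 in nm8, and 9.48 in skm4 and 8.93 in skm5, with nm8 and skm4 highest as for Iigp1. Irgm1, which restrains other GTPases of the family, had the opposite order of samples, with 8.58 in nm7 and 8.10 in nm8, and 8.05 in skm4 and 8.47 in skm5. Gbp7, a relative of Gbp2, read 9.15, 9.17, 9.47 and 9.0 in the same order, and Gbp3 read 7.88, 8.27, 7.27 and 7.61. Gbp3 was thus lower in both skm samples, as Gbp2 was, and Gbp7 was not. None of these differences was tested against another.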
